A study of Mus musculus with 6 samples.

Results

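The 10 genes described here encode the main apolipoproteins made by the liver and the transfer protein that loads lipid onto apolipoprotein B: Apoa1, Apoa2, Apoa4, Apoa5, Apob, Apoc1, Apoc3, Apoe, Apom and Mttp. Their members on the array were all probe sets that the platform annotation names with exactly 1 symbol, that symbol being among the 10 genes. This gave 16 of 22626 probe sets, for 10 of 12393 genes named on the array, and 6 of the 10 genes had a single probe set. All 16 passed the filter on low values, so none is missing from the results. RNA was measured in the livers of 6 male KK/H1J mice, from a strain whose obesity and diabetes are polygenic, with 1 mouse per one-colour array. The mice were 12 to 14 weeks old, weighed about 35 g and were fed freely. Into the tail vein, 3 mice (numbers 23, 28 and 36) received an adenovirus for a PFK-2/FBPase-2 enzyme without bisphosphatase activity (BPD), and 3 (numbers 22, 29 and 31) received a GFP adenovirus at the same stated dose. Livers were taken after 7 days, so both groups carried adenovirus, and no mice without virus were compared here. The promoter that drives the transgene is not given in the sources used here, and the transgene's own transcript was not analysed here.

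Hepatocytes secrete triglyceride in very low density lipoproteins. The microsomal triglyceride transfer protein, encoded by Mttp, moves lipid onto the growing apolipoprotein B chain, and the smaller apolipoproteins join the particle or circulate on high density lipoproteins (HDL). Apoa1 and Apoa2 encode the main structural proteins of HDL. Apoc3 inhibits the clearance of triglyceride from plasma, Apoa5 promotes it, Apoc1 restrains the uptake of particles by receptors, and Apoe is the ligand by which liver receptors take up remnants. Fructose 2,6-bisphosphate, the product of the kinase activity of PFK-2/FBPase-2, activates glycolysis and restrains gluconeogenesis.

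Several of the genes lie side by side. In the RefSeq gene order of assembly GRCm38.p6, Apoa1, Apoc3, Apoa4 and Apoa5 are neighbours on chromosome 9, and Apoc2, Apoc4, Apoc1 and Apoe are neighbours on chromosome 7. RefSeq promoter sequences of the same build, from 250 bases before to 50 after each listed start, matched 8 of the 10 genes with 12 promoters. Apoc1 and Apoc3 were not matched. The 250 bases before the start are shown for Apoa5, which had the largest fall of the 10, for Apoa1 from the same cluster, and for Apob and Mttp, which did not pass the test. Each is written 5′ to 3′ on the gene's own strand, with matches to the searched motifs in capitals.
Apoa5 (chr9:46268358-46268607, plus strand): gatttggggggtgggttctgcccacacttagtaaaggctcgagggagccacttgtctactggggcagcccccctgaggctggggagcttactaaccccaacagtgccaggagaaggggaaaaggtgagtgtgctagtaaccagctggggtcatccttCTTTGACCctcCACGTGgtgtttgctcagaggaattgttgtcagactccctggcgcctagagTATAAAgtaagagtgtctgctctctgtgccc
Apoa1 (chr9:46228380-46228629, plus strand): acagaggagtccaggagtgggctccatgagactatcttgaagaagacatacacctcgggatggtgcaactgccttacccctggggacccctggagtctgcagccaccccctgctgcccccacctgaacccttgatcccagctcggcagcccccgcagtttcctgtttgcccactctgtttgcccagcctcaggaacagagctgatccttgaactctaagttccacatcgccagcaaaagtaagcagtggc
Apob (chr12:7977427-7977676, plus strand): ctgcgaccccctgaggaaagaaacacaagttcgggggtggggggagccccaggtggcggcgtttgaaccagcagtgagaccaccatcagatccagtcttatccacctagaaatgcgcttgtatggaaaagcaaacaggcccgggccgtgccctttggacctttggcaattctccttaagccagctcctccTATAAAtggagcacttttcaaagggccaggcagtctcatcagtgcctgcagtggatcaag
Mttp (chr3:138143419-138143668, minus strand): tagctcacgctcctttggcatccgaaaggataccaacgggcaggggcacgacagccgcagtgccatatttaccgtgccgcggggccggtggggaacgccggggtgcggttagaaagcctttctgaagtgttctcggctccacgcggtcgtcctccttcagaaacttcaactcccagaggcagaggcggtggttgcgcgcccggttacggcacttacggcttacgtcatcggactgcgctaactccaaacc
The 7 motifs were searched on both strands of the 300 bases, and each match is a description of letters, not of a bound site. The TATA box TATAAA was found in 5 of the 12 promoters, belonging to 4 genes, and in 13.6% of 32851 RefSeq mouse promoters. In the Apoa5 promoter it begins 31 bases before the start shown, and in the Apob promoter 60 bases before. The E-box CACGTG, a form bound by USF factors, was present in Apoa5 alone of the 8 genes and in 7.15% of all promoters. The letters GGTCAAAG, part of a nuclear receptor repeat, were likewise in Apoa5 alone, on the opposite strand, and in 0.962% of all promoters. Forkhead TGTTTAC occurred in 2 of the 12 (Apoa2 and Apoe; 3.65% of all), and CCAAT in 2, both of Apoa2 (37.4% of all). The HNF4 motif CAAAGTCCA (0.475% of all) and the cAMP element TGACGTCA (1.79% of all) had 0 matches among the 12. In Apoa5 the E-box and the nuclear receptor letters are separated by 3 bases and do not overlap, and its second listed start lies 25 bases further on, which gives a further promoter with the same matches.

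The deposited values are MAS5 signals, a brightness per probe set on a linear scale. Median signals of the arrays ran from 174 to 196.8 in BPD livers and from 135.2 to 157.1 in GFP livers, a 1.46-fold span, although the trimmed mean was 499.9 on all 6. For tests, signals were put on the log2 scale and each array was centred on its median. The same test was repeated on the scaling as deposited and after quantile normalization, which forces all arrays to the same distribution. The scaling sets a common shift: the median gene had a log2 difference, BPD minus GFP, of -0.22 after centring, of 0.081 as deposited and of -0.0599 after quantile normalization. The ratio of 3′ to 5′ signal of Gapdh, a sign of RNA quality, was 0.735 to 0.863 in BPD and 0.785 to 0.9 in GFP livers. The same ratio of actin was 1.75, 1.23 and 1.26 in BPD mice 23, 28 and 36 and 1.4 to 1.59 in GFP livers. BPD mouse 23 thus had the highest ratio of the BPD livers for both genes (0.863 for Gapdh, against 0.735 and 0.745). Where nothing more is said, differences are BPD minus GFP after centring, with the standard error (SE) of the limma fit and the p-value adjusted over all 13575 probe sets past the filter.

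After centring, 6 of the 10 genes were lower in BPD livers (Apoa1, Apoa2, Apoa5, Apoc1, Apoc3 and Apoe) and 0 were higher, against 22.2% of all genes lower and 8.75% higher. With the deposited scaling 5 were lower, Apoe no longer passing, and after quantile normalization 0 passed in either direction. By probe set, 9 of 16 were lower and 0 higher, against 20.3% lower and 8.29% higher of all probe sets tested. As deposited, 8 were lower (9.68% of all) and 0 higher (16.7%), and after quantile normalization 0 were lower (12%) and 0 higher (12.4%). All BPD livers lay below all GFP livers for 9 of the 16 after centring (34% of all probe sets), for 9 as deposited (16.5%) and for 1 after quantile normalization (24.2%). Without adjustment, 11, 9 and 2 of the 16 had limma p under 0.05 with the 3 scalings. The share of all probe sets with such a p was not counted, so these numbers have no background. The 2 after quantile normalization went opposite ways, Apoa5 lower (-0.44) and the brighter Mttp probe set higher (0.28). Apob, Apoa4, Apom and Mttp did not pass with any of the 3 scalings. In pieces of whole liver, fewer hepatocytes and less of the transcript per hepatocyte cannot be told apart.

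**Figure D1:**
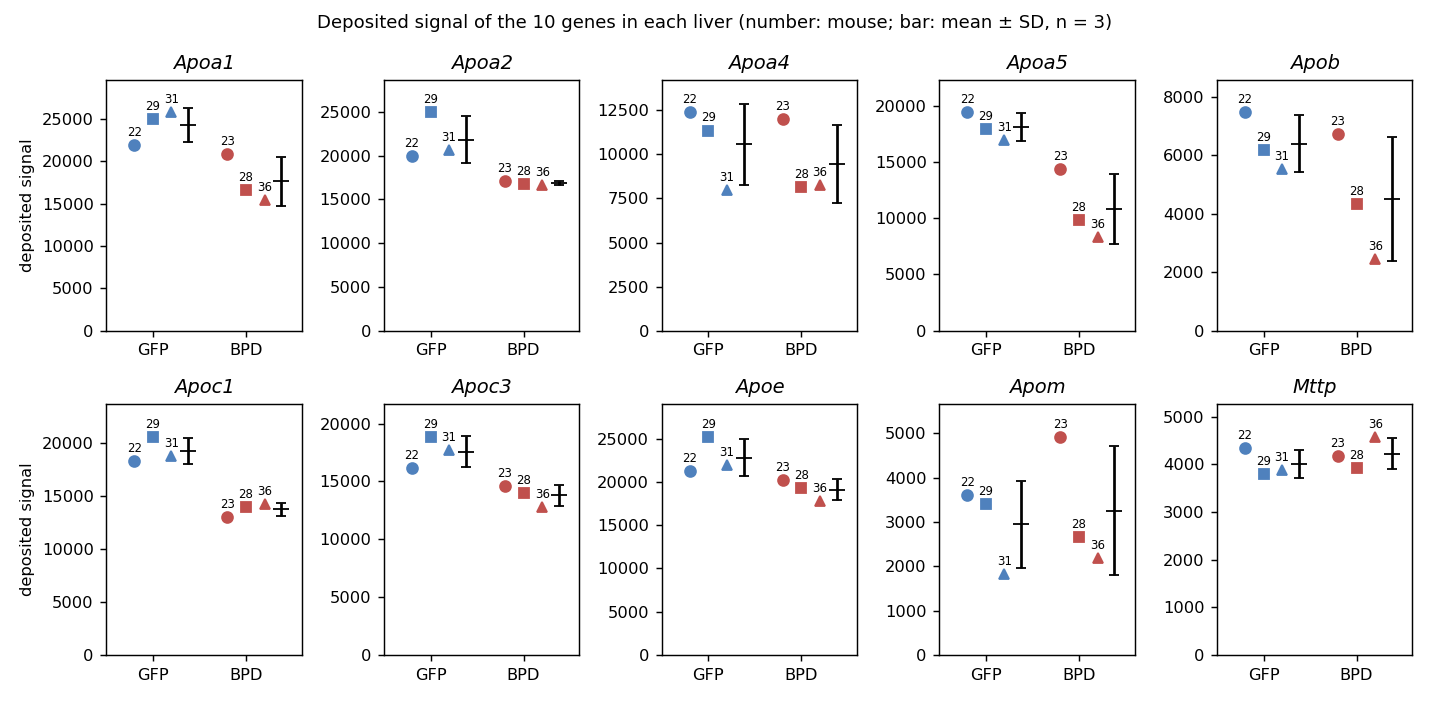
Deposited MAS5 signal (vertical axis) of the representative probe set of each of the 10 genes in each liver, with mouse numbers beside the points and bars for mean ± SD of 3 mice. As deposited, all 3 BPD livers lie below all 3 GFP livers for Apoa1, Apoa2, Apoa5, Apoc1, Apoc3 and Apoe, while the groups overlap for Apoa4, Apob, Apom and Mttp; after quantile normalization the groups separate in this direction only for Apoc1.

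Among the HDL proteins, Apoa1 had a deposited signal of 20852, 16573 and 15394.5 in BPD mice 23, 28 and 36 and of 21947, 24959 and 25757.5 in GFP mice 22, 29 and 31. All BPD livers were below all GFP livers, and BPD mouse 23 came closest to the GFP group. The means were 17606 ± 2871.6 and 24221 ± 2009.5 (SD, n = 3 each). Centred, Apoa1 fell by 0.77 ± 0.15 (95% confidence interval -1.11 to -0.43, limma adjusted p = 0.006). The other 3 Apoa1 probe sets fell by 0.69 to 0.73, with adjusted p from 0.0036 to 0.0046. All 4 also passed as deposited (-0.47 for the first and -0.42 to -0.39 for the others), and none after quantile normalization (-0.15 to -0.04). As deposited, Apoa1 was among the 29 brightest of 22626 probe sets on every array, and the brightest of all in GFP mouse 31.

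Apoa2, the second structural protein of HDL, had signals of 17061, 16784 and 16659 in the BPD livers, which were close to each other, and of 19992, 24931 and 20592 in the GFP livers. The means were 16835 ± 205.74 and 21838 ± 2694.9 (SD, n = 3 each), without overlap. Apoa2 fell by 0.67 ± 0.12, a 1.59-fold difference (adjusted p = 0.0034). It passed as deposited (-0.37, adjusted p = 0.033) and not after quantile normalization (-0.03, adjusted p = 0.84).

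Apom, which carries sphingosine 1-phosphate on HDL, varied more between mice than between groups. Its brighter probe set read 4921, 2653 and 2193 in BPD mice 23, 28 and 36 and 3607, 3404 and 1819 in GFP mice 22, 29 and 31. BPD mouse 23 was the highest liver and GFP mouse 31 the lowest, and the groups overlapped. The difference was -0.18 ± 0.35 (95% interval -0.96 to 0.59, adjusted p = 0.71), with 0.12 as deposited and 0.26 after quantile normalization. The other Apom probe set gave -0.26 ± 0.22 (adjusted p = 0.39), 0.05 and 0.18 with the same 3 scalings. An absence of change cannot be read from an interval of this width.

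Among the genes that set triglyceride clearance, Apoa5 had the largest fall of the 10 genes. Signals were 14361, 9867 and 8352.5 in the BPD livers and 19435, 17940.5 and 17015 in the GFP livers, with means of 10860 ± 3125.1 and 18130 ± 1221 (SD, n = 3 each). The 3 GFP livers lay close together, and BPD mouse 23 was above the other BPD mice but below every GFP mouse. On the log2 scale the difference was -1.07 ± 0.21 (95% interval -1.54 to -0.61), or 2.11-fold, with an adjusted p of 0.0056. The call held as deposited (-0.77, adjusted p = 0.017). After quantile normalization the difference was -0.44 with an unadjusted limma p of 0.0335 and an adjusted p of 0.097, and BPD and GFP livers overlapped.

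Apoc3 had signals of 14621, 13977 and 12764 in BPD mice and 16156, 18853 and 17689 in GFP mice. All BPD livers were lower, with means of 13787 ± 942.88 and 17566 ± 1352.8 (SD, n = 3 each). Apoc3 fell by 0.65 ± 0.12 (adjusted p = 0.0045) and by 0.35 as deposited (adjusted p = 0.035), but the difference was 0.0048 after quantile normalization (adjusted p = 0.97). Within each array the rank of Apoc3 among all probe sets overlapped between groups, 54 to 72 in BPD and 56 to 76 in GFP livers.

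Apoc1 had the smallest p-value of the 16 probe sets. The signal was 13024, 13907.5 and 14256.5 in the BPD livers and 18256, 20571 and 18752 in the GFP livers, and the means were 13729 ± 635.38 and 19193 ± 1219 (SD, n = 3 each). Both groups were narrow and did not overlap. Apoc1 fell by 0.78 ± 0.11 (1.72-fold, adjusted p = 0.0017), and by 0.48 as deposited (adjusted p = 0.0072). After quantile normalization the difference was -0.14 (adjusted p = 0.24), and Apoc1 was the only one of the 16 probe sets with all BPD livers below all GFP livers, an ordering found for 24.2% of all probe sets under that scaling. In rank it lay at 51 to 88 in BPD and 39 to 47 in GFP livers.

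Apoe read 20221, 19256.5 and 17816 in BPD livers and 21232, 25218 and 21903 in GFP livers, with means of 19098 ± 1210.3 and 22784 ± 2134.1 (SD, n = 3 each). Apoe fell by 0.55 ± 0.12 after centring (1.47-fold, adjusted p = 0.0078), did not pass as deposited (-0.25, adjusted p = 0.097), and stood at 0.05 after quantile normalization (adjusted p = 0.61). Without the filter on low values the adjusted p of the centred difference was 0.057. Its rank was 3 to 5 in BPD and 3 to 11 in GFP livers. Apoe is also made by macrophages, and 9 of the 12 macrophage markers measured were higher in BPD livers (8.75% of all genes after centring). Their summed signal was 15820 to 37320 in BPD livers against 4530 to 13970 in GFP livers. The part of those cells in the Apoe signal was not tested.

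**Figure D2:**
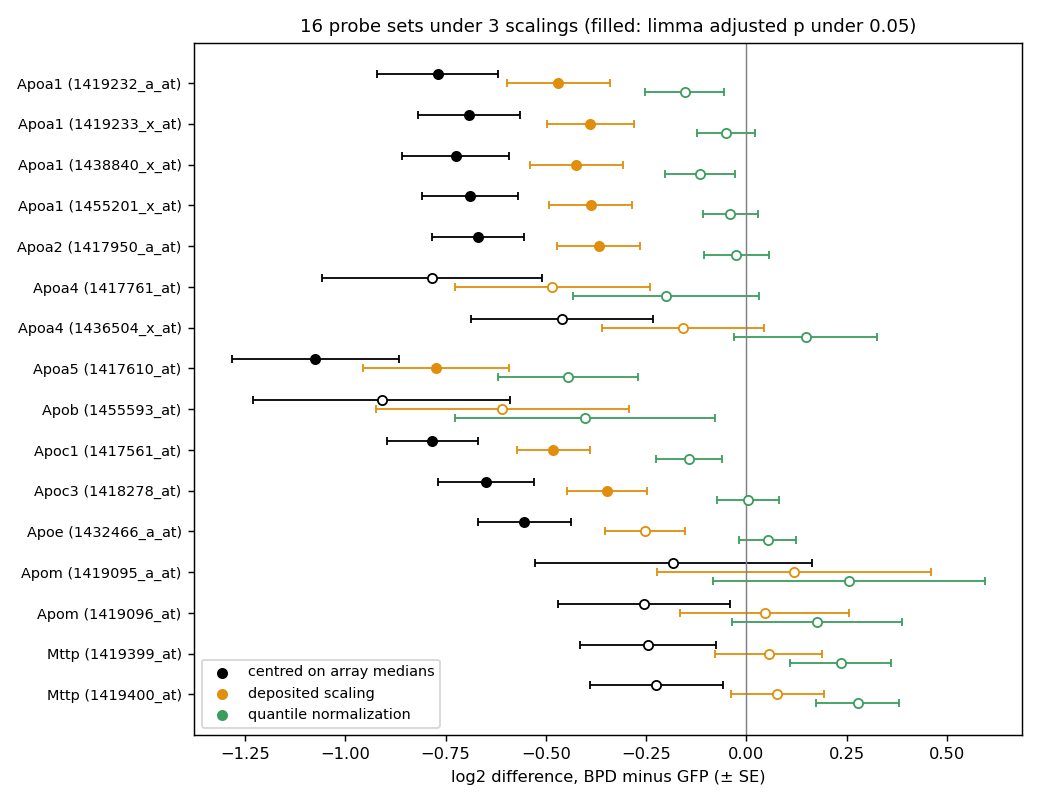
Log2 difference, BPD minus GFP (horizontal axis, points with SE bars), of the 16 probe sets under centring on array medians, the deposited scaling and quantile normalization, with filled points where the limma adjusted p is under 0.05. From the first to the last scaling every probe set moves to the right, the filled points go from 9 to 8 to 0, and Apoa4 (1 of its 2 probe sets), Apoc3, Apoe, Apom and Mttp end to the right of 0.

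Among the proteins of particle assembly, Apob had signals of 6713, 4334 and 2460 in BPD mice 23, 28 and 36 and of 7459, 6169 and 5539 in GFP mice 22, 29 and 31. BPD mouse 23 lay within the GFP range and BPD mouse 36 was 2.73-fold below BPD mouse 23, so the BPD group had the wider spread (SD 2131.2 against 978.58). The difference was -0.91 ± 0.32 (95% interval -1.63 to -0.19; unadjusted p = 0.0186 and adjusted p = 0.059 in the limma fit). With BPD mouse 23 left out it was -1.28 (adjusted p = 0.0095), and with BPD mouse 36 left out -0.55 (adjusted p = 0.13). The differences with the deposited and quantile scalings were -0.61 and -0.40 (adjusted p = 0.19 and 0.39).

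Mttp, the lipid transfer protein, had close group means on the deposited scale. The brighter of its 2 probe sets read 4176, 3933 and 4581 in the BPD livers and 4347, 3802 and 3880 in the GFP livers, with means of 4230 ± 327.64 and 4009.8 ± 294.64 (SD, n = 3 each). The groups overlapped as deposited and after centring. The difference was -0.22 ± 0.17 (95% interval -0.60 to 0.15, limma adjusted p = 0.33) after centring. It was 0.08 ± 0.12 as deposited (limma adjusted p = 0.67) and 0.28 ± 0.10 after quantile normalization (limma adjusted p = 0.084). An absence of change cannot be read from these values. Under that last scaling all BPD livers were above all GFP livers, an ordering that 20.1% of all probe sets showed. The other probe set gave -0.25, 0.06 and 0.23, so both probe sets changed sign between scalings. As a rank within the deposited array, the brighter probe set stood at 653 to 745 in BPD and 838 to 934 in GFP livers. Quantile normalization itself rests on these ranks, so they restate its ordering, and a rank also shifts when other probe sets change.

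Apoa4, which helps assemble triglyceride-rich particles and whose main source is the intestine, had 2 probe sets that differed in size. The brighter read 12025, 8139 and 8268 in BPD livers and 12385, 11359 and 7999 in GFP livers, and the groups overlapped. It gave -0.46 ± 0.23 (adjusted p = 0.15), -0.16 as deposited and 0.15 after quantile normalization. The dimmer gave -0.78 ± 0.27 (unadjusted p = 0.0178, adjusted p = 0.058), -0.48 and -0.20. BPD mouse 23 again carried the highest BPD signal on both. Without that mouse, the differences of the 2 probe sets were -0.67 and -1.12, both past the threshold (adjusted p = 0.05 and 0.0068). Of 11 intestine markers, 7 were too dim to pass the filter, among them Vil1, Lct and Cdx2, and 3 were not analysed here. Only Fabp2 passed the filter (0.39 ± 0.28, adjusted p = 0.33), although it passed the test after quantile normalization (0.83, adjusted p = 0.037).

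For Apoa1, Apoa2, Apoa4, Apoa5, Apob, Apoc3, Apoe and Apom, BPD mouse 23 had the highest deposited signal of the 3 BPD livers, as the plot of signals by mouse shows. Leaving out any 1 mouse kept all 9 called probe sets past the threshold (limma adjusted p up to 0.03). The number of the 16 past the threshold was then 9 to 12, and 12 only without BPD mouse 23, when Apob and both Apoa4 probe sets joined. Over the 6 sets with a mouse left out, the Apoa5 difference ran from -1.33 to -0.93 and that of Apoc1 from -0.83 to -0.74.

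Most of the 10 genes are among the brightest on the array, where the step from centring to quantile normalization was larger than for the median gene. The 226 brightest of the 22626 probe sets, the top 1%, had mean signals of at least 9516 and held 11 of the 16 probe sets. Of the 226, 175 (77.4%) were lower in BPD livers after centring and 1 was higher. As deposited 113 (50%) were lower and 5 higher, and after quantile normalization 36 (15.9%) were lower and 35 higher. The median difference of the 226 was -0.634, -0.332 and -0.000154 with the 3 scalings, and that of the 10 genes was -0.66, -0.358 and -0.0104. The highest signal of any probe set was also lower on BPD arrays (21082.1 to 22795.8) than on GFP arrays (25631.7 to 25757.5). The fall of the apolipoprotein probe sets after centring was thus read in a range of signals where most probe sets were lower under the same scaling, and the part of the upper range of the measurement in it was not tested.

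**Figure D3:**
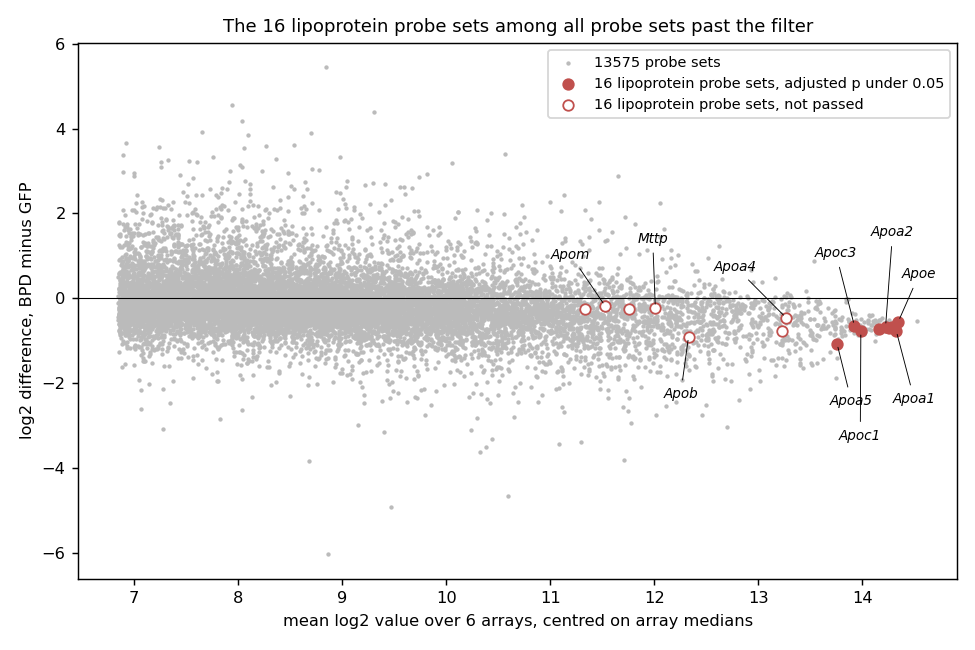
Mean log2 value over the 6 arrays (horizontal axis) against the log2 difference, BPD minus GFP (vertical axis), both centred on array medians, for 13575 probe sets (grey) and the 16 lipoprotein probe sets (red; filled where the limma adjusted p is under 0.05). All 9 filled points lie at the bright end, where most grey points are below 0 after centring; after quantile normalization the median of the brightest 226 is -0.000154 and none of the 16 passes.

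Ratios between probe sets of the same array do not depend on how arrays are scaled to each other by a common factor. Over 3 mice against 3 the exact 2-sided permutation test cannot give a p below 0.10, so none could pass. Over the 11 ratios compared, the Benjamini-Hochberg values were 0.37 to 0.50. The reference was the mean log2 value of 4 abundant hepatocyte transcripts, Alb, Ttr, Serpinc1 and Ahsg. These 4 were themselves lower in BPD livers after centring, 1 of them as deposited and none after quantile normalization.

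In 3 of the 11 ratios the groups did not overlap. The share of such ratios among all pairs of genes was not counted, so this number has no background. Several of the ratios also share Apoa1 or the reference. The log2 ratio of Mttp to the reference was -1.97, -1.97 and -1.61 in BPD mice 23, 28 and 36 and -2.06, -2.46 and -2.29 in GFP mice 22, 29 and 31. Every BPD liver thus had more Mttp signal relative to these hepatocyte transcripts, by 0.42 on the log2 scale or 1.34-fold (exact permutation p = 0.1). After quantile normalization the difference was 0.299, still without overlap. Centred, Mttp lay at the median of all genes (-0.22 for each), and the reference genes at -0.83 to -0.54. The reference genes are among the 226 brightest probe sets, whose median was -0.634. A ratio within an array does not remove a shift that depends on brightness, so 0.42 is not shown to be particular to Mttp. Apoc1 relative to Apoe, its neighbour on chromosome 7, was lower in every BPD liver, at -0.634, -0.469 and -0.321 against -0.218, -0.294 and -0.224. That difference was -0.23 (exact permutation p = 0.1), and -0.196, again without overlap, after quantile normalization. Apoe relative to the reference was higher by 0.09 in BPD livers (exact permutation p = 0.1), with overlap after quantile normalization.

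The other ratios overlapped. Within the chromosome 9 cluster, Apoa5 relative to Apoa1 was -0.537, -0.747 and -0.881 in BPD livers and -0.175, -0.476 and -0.598 in GFP livers, a difference of -0.31 (exact permutation p = 0.2). Apoc3 and Apoa4 relative to Apoa1 differed by 0.12 and 0.31 (exact permutation p = 0.3 for each). With a smallest possible p of 0.10, this test could not decide whether a member of the cluster moved apart from Apoa1. Without BPD mouse 23, Apoa5 and Apoc3 relative to Apoa1 differed by -0.40 and 0.20, each without overlap. Without that mouse 9 of the 11 ratios had no overlap. Apoa2 and Apom relative to Apoa1 differed by 0.10 and 0.59 (exact permutation p = 0.5 and 0.3). Mttp relative to Apob was -0.683, -0.14 and 0.892 in the BPD livers and -0.777, -0.696 and -0.512 in the GFP livers. BPD mouse 23 lay inside the GFP range and BPD mouse 36 far above it, and the difference was 0.69 (exact permutation p = 0.2), or 0.25 without BPD mouse 36. Apob relative to the reference differed by -0.27 (exact permutation p = 0.4), and by 0.05 without BPD mouse 36. Apoa1 relative to the reference differed by -0.13 (exact permutation p = 0.3).

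**Figure D4:**
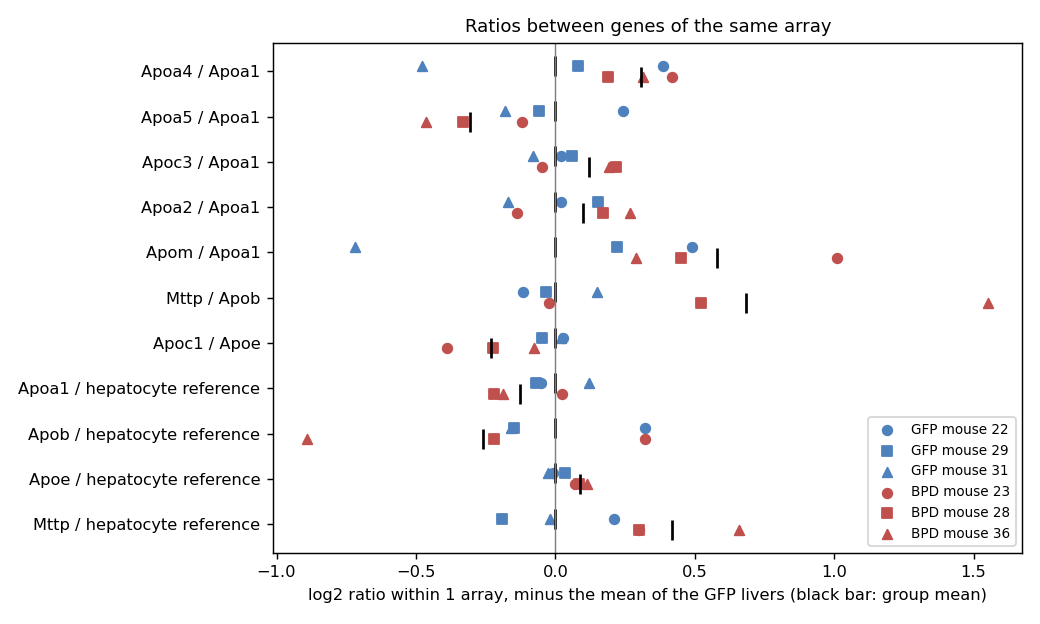
Log2 ratio of 2 genes on the same array, minus the mean of the GFP livers (horizontal axis), for the 11 ratios, with 1 symbol per mouse and a black bar for each group mean. The groups separate for Mttp to the hepatocyte reference and Apoe to the reference (BPD higher) and for Apoc1 to Apoe (BPD lower); after quantile normalization Apoe to the reference overlaps, and the points of BPD mice 23 and 28 for Mttp to the reference lie on top of each other.

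The genes most like each member over the 6 arrays were found by the root mean square difference of their centred log2 values, each gene's own mean removed, among 8151 genes. These are descriptions over 6 arrays that share the 2 groups. Apoe lay nearest to Adh1 (0.0249), Alb (0.0322) and Hp (0.0434), and Apoc3 to Vtn (0.0286), Serpina1c (0.0306) and Tmem63b (0.0348), most of them abundant hepatocyte transcripts. Mttp lay nearest to Trim26 (0.0244) and Cpt1a (0.0307), the carnitine transferase that admits fatty acids to mitochondria, followed by Phax (0.0427). Apoc1 was nearest to Akr1c6 (0.0446), Plg (0.05) and Yaf2 (0.053), Apoa2 to Abhd18 (0.0493), Itm2b (0.0532) and Tram1 (0.056), and Apoa1 to Kdm4b (0.0715), Ninj1 (0.0743) and Yif1a (0.0749). Apob was nearest to Arntl (0.12), a core clock gene, and then to Apoa5 (0.234) and Mycl (0.244). Apob was the only one of the 10 with another of the 10 among its nearest 3. Apoa5 was nearest to Dnajc12 (0.0816), Bcs1l (0.0858) and Adap2 (0.108), Apoa4 to Nudt9 (0.0948), Ap1ar (0.0996) and Drg2 (0.11), and Apom, with no close match, to Igsf5 (0.222), Tmem128 (0.239) and Rrbp1 (0.239).

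Of 14 other apolipoproteins and HDL proteins measured (17 listed), 9 were lower and 0 higher after centring, against 22.2% and 8.75% of all genes. The median difference of the 14 was -1.11, beside -0.66 for the 10 genes and -0.22 for all genes. With the deposited scaling 9 were lower and 0 higher, and after quantile normalization 6 lower and 1 higher. Of all probe sets, 9.68% were lower and 16.7% higher as deposited, and 12% and 12.4% after quantile normalization. Shares of all genes were counted only after centring. Pon1, the HDL esterase paraoxonase, had signals of 2784, 4265 and 5675 in BPD livers and 13990, 15070 and 14790 in GFP livers, and fell by 2.14 ± 0.23 (adjusted p = 0.00053). The groups were far apart, and the call held as deposited (-1.84) and after quantile normalization (-1.56). Gpld1, a phospholipase carried on HDL, read 1774, 1540 and 1492 against 4909, 4734 and 5462 and fell by 1.94 ± 0.17 (adjusted p = 0.00029), and its differences were -1.64 and -1.52 with the other scalings.

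Apoc4, which lies between Apoc2 and Apoc1, had signals of 7465, 8130 and 8342 in BPD livers and 14090, 14270 and 15650 in GFP livers. It fell by 1.18 ± 0.13 (adjusted p = 0.00063), with -0.88 as deposited and -0.56 after quantile normalization, both past the threshold. Lcat, which esterifies HDL cholesterol, fell by 1.19 ± 0.19 (adjusted p = 0.0023), with -0.89 and -0.71, also past the threshold. Apoc2, the activator of lipoprotein lipase and the next gene in the cluster, was named after its values were seen. It read 14620, 9841 and 6963 in BPD livers and 7103, 5653 and 6126 in GFP livers. BPD mouse 23 was the highest and BPD mouse 36 lay within the GFP range, and the difference was 0.37 ± 0.26 (adjusted p = 0.3), but 0.95 after quantile normalization (adjusted p = 0.023). Without BPD mouse 23 the centred difference of Apoc2 was 0.07.

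Along the secretory path of lipoprotein particles, 8 of 22 genes measured (25 listed) were lower and 1 was higher, against 22.2% and 8.75% of all genes. The list median was -0.39, beside -0.22 for all genes. As deposited 7 were lower and 2 higher (9.68% and 16.7% of all probe sets). After quantile normalization 6 were lower and 1 higher (12% and 12.4% of all probe sets). The carboxylesterase genes Ces1g and Ces1d fell most in this list. Ces1g read 737.7, 927.9 and 895.1 in BPD livers and 2295, 2934 and 4027 in GFP livers and fell by 2.10 ± 0.21 (adjusted p = 0.00044). Ces1d, its relative, read 2957, 2311 and 4820 against 8133, 8919 and 6786 (difference -1.597, adjusted p = 0.003). Lman1, a cargo receptor of the endoplasmic reticulum, fell by 1.05 ± 0.17 (adjusted p = 0.0024), and Mia3 (TANGO1), which loads bulky cargo at its exit sites, fell by 0.92 ± 0.18 (adjusted p = 0.0062). The 4 probe sets of Lman1 ran from -1.45 to -0.6 and the 2 of Mia3 from -0.917 to -0.619. By the probe sets given, these 4 genes were lower and past the threshold with all 3 scalings.

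The other subunit of the transfer protein complex is protein disulphide isomerase, encoded by P4hb. Named after its values were seen, P4hb fell by 0.62 ± 0.13 after centring (adjusted p = 0.0075) (-0.32 and adjusted p = 0.029 as deposited), but stood at 0.04 after quantile normalization (adjusted p = 0.71). Its signals were 11960, 10950 and 10910 in BPD livers and 14010, 14250 and 14050 in GFP livers. The gene of this list that rose was Apobec1, the enzyme that edits Apob messenger RNA so that the short form of the protein is made, and it too was named after its values were seen. It read 2002, 1646 and 942.7 in BPD livers and 501.2, 737.9 and 298.3 in GFP livers, with every BPD liver above every GFP liver. Apobec1 rose by 1.27 ± 0.33 (adjusted p = 0.02), by 1.57 as deposited and by 1.49 after quantile normalization. The call was lost when BPD mouse 23 (1.01, adjusted p = 0.067), BPD mouse 28 (1.24, adjusted p = 0.068) or else GFP mouse 31 (0.95, adjusted p = 0.055) was left out.

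**Figure D5:**
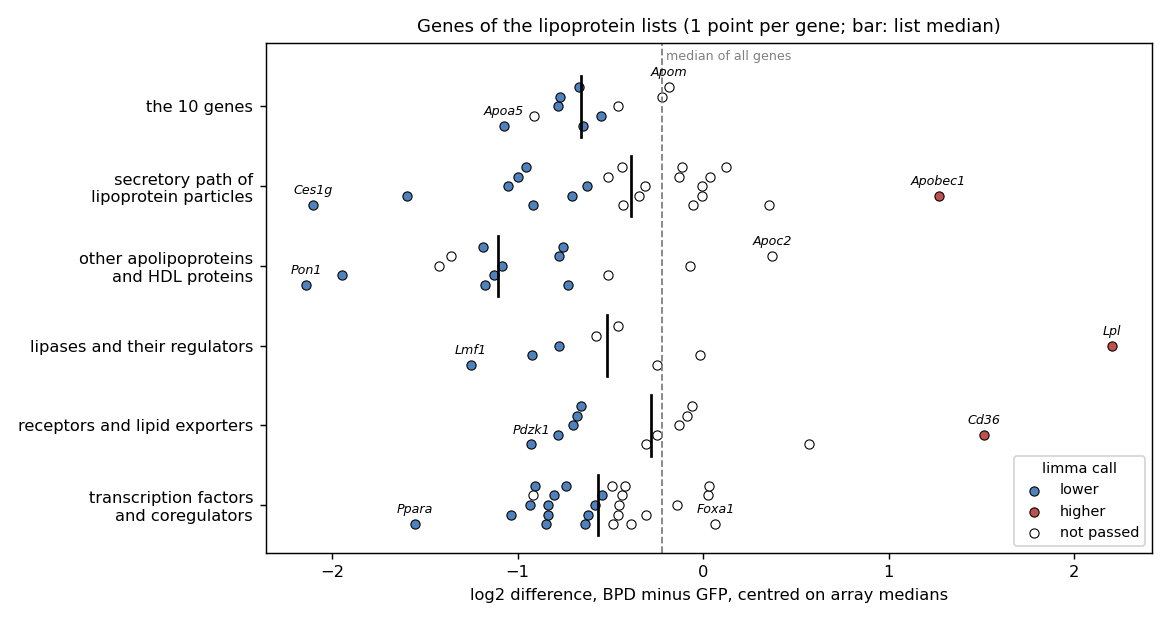
Log2 difference, BPD minus GFP after centring (horizontal axis), of every measured gene of the 10 and of 5 lipoprotein lists, 1 point per gene coloured by its limma call, with a bar at the list median and a dashed line at the median of all genes (-0.22). Pon1, Ces1g, Lmf1, Ppara and Pdzk1 are the lowest of their lists and Lpl, Cd36 and Apobec1 are the genes called higher, all with the same call under the 3 scalings; the calls of the 10 genes themselves are lost after quantile normalization.

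Among lipases and their regulators, 3 of 8 measured (11 listed) were lower and 1 higher after centring, against 22.2% and 8.75% of all genes. With each of the other scalings 2 were lower and 1 higher. Of all probe sets, 9.68% were lower and 16.7% higher as deposited, and 12% and 12.4% after quantile normalization. Lpl, the lipase that hydrolyses triglyceride in circulating particles and is normally low in adult hepatocytes, read 4683, 5399 and 2561 in BPD livers and 649, 1276 and 400.6 in GFP livers. All BPD livers were higher, and Lpl rose by 2.20 ± 0.37 (adjusted p = 0.0031), by 2.51 as deposited and by 2.53 after quantile normalization. Lmf1, needed for lipases to mature, fell by 1.25 ± 0.22 (adjusted p = 0.0034), and the protease gene Pcsk6 fell by 0.92 ± 0.20 (adjusted p = 0.0089), both past the threshold with all 3 scalings. Furin, another protease that cleaves lipases and their inhibitors, fell by 0.78 ± 0.20 (adjusted p = 0.021), and did not pass as deposited (adjusted p = 0.081) or after quantile normalization (adjusted p = 0.062). Leaving out 1 mouse also lost its call, for BPD mice 23 and 28 and for GFP mice 22 and 31 (adjusted p from 0.05 to 0.088).

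Of 12 receptors and lipid exporters measured (17 listed), 5 were lower and 1 higher, against 22.2% and 8.75% of all genes. The list median of -0.279 was near the -0.22 of all genes. As deposited 3 were lower and 2 higher (9.68% and 16.7% of all probe sets). After quantile normalization 2 were lower and 3 higher (12% and 12.4% of all probe sets). The number lower was 3 when BPD mouse 28 or either of GFP mice 22 and 31 was left out. Cd36, a fatty acid and lipoprotein receptor, had signals of 2564, 2821 and 4242 in BPD livers and 1208, 771.5 and 725.5 in GFP livers and rose by 1.51 ± 0.27 (adjusted p = 0.0043), with its 3 probe sets at 0.581 to 1.51. It passed as deposited (1.82) and after quantile normalization (1.87). Pdzk1, the adaptor that holds the HDL receptor at the membrane, fell by 0.93 ± 0.19 (adjusted p = 0.0077), and Lrpap1, a chaperone of lipoprotein receptors, by 0.78 ± 0.17 (adjusted p = 0.0094), although the 4 probe sets of Lrpap1 ran from -0.782 to -0.174. Both held with the other scalings. Lsr, a remnant receptor, fell by 0.70 ± 0.16 (adjusted p = 0.012) and missed the threshold with the deposited (adjusted p = 0.055) and quantile (adjusted p = 0.067) scalings.

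Both Lpl and Cd36 are also made by macrophages, whose marker genes rose (9 of 12 measured after centring, 9 as deposited and 10 after quantile normalization). The resident Kupffer cell markers Clec4f (-0.58 ± 0.58, adjusted p = 0.47) and Vsig4 (0.48 ± 0.58, adjusted p = 0.56) did not pass and had opposite signs. Marco and Cd163 were too dim. Neutrophil markers (4 of 4 measured with each of the 3 scalings) were also higher in BPD livers. Of 9 stellate and matrix genes measured, 4 were higher after centring, 5 as deposited and 4 after quantile normalization. Among them Des, Reln, Lrat and Dcn did not pass with any of the 3 scalings. The summed signal of the neutrophil markers was 1507 to 7210 in BPD against 276.3 to 512.8 in GFP livers. That of the stellate and matrix genes was 5640 to 19150 against 4246 to 5479. The hepatocyte marker Alb was bright on all 6 arrays (14780 to 21340), and all 9 hepatocyte markers measured were lower after centring. Of those 9, 5 were lower as deposited and 4 after quantile normalization, and their summed signal was 92440 to 100600 in BPD and 138900 to 146900 in GFP livers. Alb, Ttr, Serpinc1, Ahsg, Cps1 and Hpd are among the 226 brightest probe sets. Of those 226, 77.4% were lower after centring, 50% as deposited and 15.9% after quantile normalization. Of all genes, 22.2% were lower and 8.75% higher after centring. Of all probe sets, 9.68% were lower and 16.7% higher as deposited, and 12% and 12.4% after quantile normalization. The part of the marker shifts in the lipoprotein genes was not tested.

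Of 26 transcription factors and coregulators known to act on these genes (30 listed), 13 were lower and 0 higher after centring, against 22.2% and 8.75% of all genes. But 4 were lower as deposited (9.68% of all probe sets) and 3 after quantile normalization (12% of all probe sets). Leaving out a mouse gave 4 to 10 lower (4 without BPD mouse 28 or GFP mouse 22, 5 without GFP mouse 31, 8 without BPD mouse 23, 9 without BPD mouse 36). The median was -0.566 after centring. Ppara, the fatty acid receptor through which fibrates act, read 1296, 1082 and 1514 in BPD livers and 2822, 2367 and 4380 in GFP livers. It fell by 1.55 ± 0.26 (adjusted p = 0.0032), with -1.25 as deposited and -1.18 after quantile normalization, both past the threshold. Nr1h4, the bile acid receptor FXR, fell by 0.91 ± 0.17 (adjusted p = 0.0048), and Zbtb20, a repressor active in hepatocytes, by 0.85 ± 0.19 (adjusted p = 0.011), both past the threshold with all 3 scalings. Srebf1, the factor that drives lipogenic genes, fell by 0.93 ± 0.21 (adjusted p = 0.011) and did not pass after quantile normalization (adjusted p = 0.074). Hnf4a, the hepatocyte factor of many apolipoprotein promoters, was named after its values were seen. It differed by -0.58 ± 0.19 (adjusted p = 0.047) with overlapping groups, and did not pass as deposited (-0.28, adjusted p = 0.2) or after quantile normalization (-0.08, adjusted p = 0.7). The 4 probe sets of Hnf4a ran from -0.584 to -0.158 after centring, so the one given was the lowest. Without any 1 mouse other than GFP mouse 29 the adjusted p of Hnf4a was 0.051 to 0.15.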

How the data were processed

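Per the submitters' processing notes, the deposited signal intensities were made by the authors with MAS5. The sources used here do not give its version, target value or filters. The table holds 22690 probe sets, 64 of them controls, and 0 columns were left unused. Of the 22626 others, the platform annotation gives 1 symbol to 20380, several to 691 and none to 1555. Over 1% identical values were found in 0 pairs of arrays. Labels do not say more than that each array is 1 mouse.

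Deposited intensities were analysed as log2(signal + 16.3313), the constant being 10% of the median of all values, and changes of dim genes are understated. A rule asked for centring if array medians differed by over 25%, which they did. Probe sets with a mean log2 value above the 40th percentile (signal 98.8) were kept. This left 13575, and 8151 genes, each represented by the brightest of its kept probe sets. BPD and GFP were compared with limma 3.58.1 in R 4.3.3 (lmFit, eBayes with trend, 2-sided, 4 residual and 5.44 prior degrees of freedom), Benjamini-Hochberg adjustment over 13575 probe sets and a threshold of 0.05. The script was tested on simulated data. Array number limits the precision.

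The named genes are all 10 members, up to 4 genes of each pathway list with the smallest p, and the 3 genes nearest to each member. Genes named otherwise are marked. Members and lists were chosen with earlier results of these data known. Alternatives were the scaling, the constant, the filter, the limma settings, array weights, the Gapdh ratio as a covariate, probe set class and each mouse left out.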

Additional observations from a re-analysis of the deposited data

How the results depend on the processing

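No paired analysis was possible because the labels give the BPD and GFP mice no shared numbers. After quantile normalization, the probe sets of the 10 genes past the threshold went from 9 to 0 and the pathway genes from 41 to 25. Without probe sets of the _x_at, _s_at and _a_at classes, 2576 of all probe sets passed in place of 3885, and 3 of the 10 genes' probe sets, since fewer were tested. Leaving out 1 mouse gave 1984 (without BPD mouse 28) to 3971 for all probe sets, 9 to 12 for the 10 genes, 27 (without BPD mouse 28) to 38 for the pathway genes, and 3 to 9 ratios without overlap in place of 3 (9 without BPD mouse 23, 5 without GFP mouse 22 or GFP mouse 31). Signs turned as deposited for Apom (0.1186 and 0.04549) and Mttp (0.05547 and 0.07648), none of them called. After quantile normalization they turned for 1 Apoa4 probe set (0.1476), Apoc3 (0.004821), Apoe (0.05312), Apom (0.2561 and 0.1758), Mttp (0.2346 and 0.2779) and P4hb (0.04101). The brighter Apom probe set (-0.1826) ran from -0.5542 without BPD mouse 23 to 0.03893 without GFP mouse 22, with 0.03536 without BPD mouse 36. The cause of the turns was not tested. Calls were gained with array weights for Apob (adjusted p = 0.034) and the dimmer Apoa4 probe set (0.026), which also passed with the filter at the 60th percentile (0.047).

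Each group has 3 mice, the transgene was not checked, and the 11 brightest of the 16 probe sets lie near the top of the signal range. Centring, the deposited scaling and quantile normalization rest on different assumptions about what is equal between livers, and these files do not settle which holds. A call on Apoa1, Apoa2, Apoa5, Apoc1, Apoc3 or Apoe therefore depends on the scaling.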
